A study of Rattus norvegicus with 2 samples.

Results

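The genes described here encode 10 proteins of prostaglandin synthesis, uptake, breakdown and reception: Pla2g4a, Ptgs1, Ptgs2, Ptges, Ptges2, Slco2a1, Hpgd, Ptgr1, Ptger2 and Ptger4. They were taken by symbol from 15037 rat genes with a named probe, and each of the 10 had 1 named probe. The set was selected on the measured log2 differences between the arrays as well as on function, with the difference of Hpgd in view, so the differences below are a description and support nothing by themselves. Transcript levels came from short-oligonucleotide whole-transcript arrays of keratinocytes, the main cell type of the epidermis, cultured from newborn rat skin. The siTet2/3 group was 1 array of cells that had received Tet2 and Tet3 siRNAs, at 1 µM each. The control group was 1 array of cells labelled control and NC+VC and described as non-treated, although they too received vitamin C. What NC stands for and whether the control received another siRNA or the transfection reagent alone are not stated. At 24 h after transfection both groups were given vitamin C, which lasted 12 h, in medium with 10% serum and 0.4 µg/mL hydrocortisone, a glucocorticoid. TET proteins oxidise the methyl group of methylated cytosine and are stimulated by vitamin C, so the comparison addresses expression with and without the siRNAs in the presence of vitamin C.

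Prostaglandins are short-lived lipid signals. Cytosolic phospholipase A releases arachidonic acid from membranes, the cyclooxygenases turn it into an unstable endoperoxide, and terminal synthases make prostaglandin E and its relatives, which act on receptors of the same or neighbouring cells. The signal ends when a transporter brings the prostaglandin back into the cell and the dehydrogenase encoded by Hpgd oxidises it, and in skin this system is known for its part in inflammation, wound repair and the response to ultraviolet light.

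With 1 array per group there was no replicate check and no test, and the number of arrays limits the precision of every value. The words higher and lower refer to this pair of arrays alone. Values are the log2 signals that the authors deposited, with medians of 4.90 on the siTet2/3 array and 4.85 on the control array. The background floor was 5.04 log2 units, the 95th percentile of 1206 chemoreceptor genes that a keratinocyte is not thought to use. A gene above it on at least 1 array was counted as higher or lower where the arrays differed by at least 1.5-fold. Negative-control probes gave a stricter level of 8.31 log2 units by the same percentile. No named probe stood for any of the 3 Tet genes, so the knockdown itself was not analysed here. All 9 keratinocyte markers with a named probe were above the floor on both arrays, among them the basal keratin gene Krt14 at 18.70 (siTet2/3) and 18.54 (control) log2 units; Krt1 differed most, by -0.45. Of 30 markers of fibroblasts, melanocytes, immune cells, mast cells, endothelium and smooth muscle, 5 passed the floor (Vim, Mitf, Cd68, Tek and Acta2), and none of the 5 differed by 1.5-fold.

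Of the 10 genes, Hpgd was higher on the siTet2/3 array, Slco2a1 was also higher but lay below the floor on the control array, and the cyclooxygenase gene Ptgs1 was lower. The other 5 genes above the floor differed by less than 1.5-fold, and the receptor genes Ptger2 and Ptger4 were not above the floor on either array. Among the 8 genes above the floor, 2 were therefore past 1.5-fold in the higher direction and 1 in the lower. Over the whole table, 8103 genes passed the floor, of which 8.63% were higher and 13.2% lower at that limit. At a limit of 2-fold, 1 of the 8 genes (Hpgd) was higher and 0 were lower, against 1.81% higher and 3.05% lower of the 8103. Because the genes were chosen with these differences known, nothing is read from the comparison of the shares. The median difference of the 8 genes was -0.20 log2 units, with 3 above 0 and 5 below 0, beside a median of -0.05 for all genes above the floor.

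**Figure D1:**
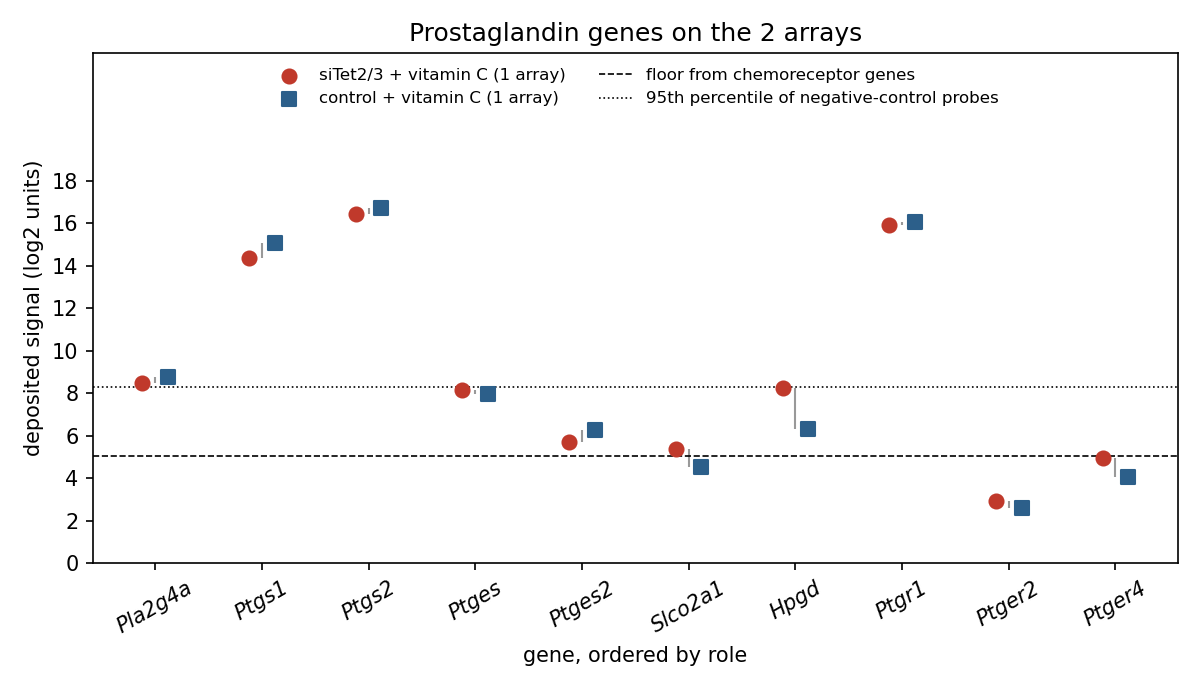
Deposited log2 signal of the 10 prostaglandin genes on the siTet2/3 array (circles) and the control array (squares), 1 array each, with the chemoreceptor floor (dashed) and the level from negative-control probes (dotted). The widest gap is that of Hpgd, at 8.24 on the siTet2/3 array and 6.34 on the control array, while Ptger2 and Ptger4 lie under the dashed line on both.

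Hpgd encodes the NAD-dependent dehydrogenase that oxidises the hydroxyl group prostaglandins need for activity. It read 8.24 log2 units on the siTet2/3 array and 6.34 on the control array. The siTet2/3 value was the higher by 1.90 log2 units, or 3.72-fold, and both values were above the floor. This was rank 7 of the 8103 genes above the floor, counted from the largest increase, and rank 5 of 8036 once placeholder and chemoreceptor symbols were left out. The difference was 4.31 times the robust SD of 0.44 log2 units over the 500 genes nearest to Hpgd in mean level, which measures the spread between genes and not between replicates.

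Both Hpgd values lay below the negative-control level of 8.31 log2 units, and 5.20% of negative-control probes were as bright as Hpgd or brighter on at least 1 array. A difference of this size or more, in either direction, was seen in 97 of 1153 negative-control probes (8.41%) and in 4 of 1206 chemoreceptor genes (0.332%). How much of the Hpgd signal is background was not tested.

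The promoter window of Hpgd is shown because TET enzymes act on methylated CG dinucleotides, the letters set in capitals. It runs from 250 bases before to 50 bases after the start site, on the minus strand of chr16:39034782-39035081 in RefSeq's GRCr8 assembly, and holds 17 CG dinucleotides.

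Hpgd: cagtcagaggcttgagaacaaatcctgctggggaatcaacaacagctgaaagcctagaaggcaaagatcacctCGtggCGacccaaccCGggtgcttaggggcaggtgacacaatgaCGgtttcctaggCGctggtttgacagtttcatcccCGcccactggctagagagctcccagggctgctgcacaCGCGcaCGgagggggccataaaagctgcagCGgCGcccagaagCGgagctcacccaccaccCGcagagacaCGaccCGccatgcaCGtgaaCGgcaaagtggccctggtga

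Over all 27457 windows of this length the median was 7 CG dinucleotides, and 31.5% of windows held at least as many as Hpgd. The letters CATAAA, a form of the TATA box, begin 45 bases before the start site (12.5% of windows hold them on either strand), and the GC box GGGCGG lies in reverse complement 99 bases before it (34.9%). The letters TGACG, the core of the cyclic AMP response element, begins 136 bases before the start (22.0%), and the E-box CACGTG begins at base 23 after it (6.65%). The last 3 motifs each hold a CG dinucleotide, and no 2 of the 4 overlap. These matches describe letters only. DNA methylation was not measured in the files used here, so whether these CG dinucleotides were methylated in either culture is not known.

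No near neighbour of Hpgd above the floor was higher on the siTet2/3 array. The 3 nearest genes with a named probe on each side, in the RefSeq gene order, were Hand2, Fbxo8 and Cep44 on one side and Glra3, Gpm6a and Spata4 on the other. Of these 6, Fbxo8 and Cep44 passed the floor. Fbxo8, which encodes an F-box protein, read 9.29 (siTet2/3) and 9.64 (control) log2 units, a difference of -0.35. Cep44, a centrosomal gene, read 4.77 on the siTet2/3 array, below the floor, and 5.36 on the control array, so it was at least 1.25-fold lower. By its difference as measured, -0.60 log2 units, it was just past the 1.5-fold limit.

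The genes whose pair of values lay nearest to that of Hpgd, by Euclidean distance over the 2 arrays, were Vps13a, Pcyox1l, Steap2, Olfml3 and Kat5. Their distances ran from 0.62 for the lipid transfer gene Vps13a to 0.68 for the acetyltransferase gene Kat5. All 5 were higher on the siTet2/3 array, but less than Hpgd, by 0.95 log2 units (Kat5) to 1.05 (Vps13a). The genes were picked by nearness to both values of Hpgd, so their direction follows from the choice. Likeness over 2 arrays rests on 1 level and 1 difference.

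Slco2a1 encodes the prostaglandin transporter, which carries prostaglandins into the cell where Hpgd acts. It read 5.37 log2 units on the siTet2/3 array and 4.55 on the control array, where it was below the floor. The difference as measured was 0.82 log2 units, and against the floor the siTet2/3 value was at least 1.26-fold higher. A difference as large was seen in 453 of 1153 negative-control probes (39.3%) and in 171 of 1206 chemoreceptor genes (14.2%). Both Slco2a1 values lay below the negative-control level of 8.31 log2 units, as did those of Hpgd.

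Ptgr1, the reductase that acts on the keto product of Hpgd and also inactivates leukotriene B, differed little. It read 15.91 log2 units on the siTet2/3 array and 16.04 on the control array, a difference of -0.13, or 0.43 times the robust SD at its level. The Hpgd signal relative to that of Ptgr1 was 4.06-fold higher on the siTet2/3 array. This ratio rests mainly on the Hpgd difference, which was in view when the set was chosen, and on Hpgd values below the negative-control level. A change in the scaling of a whole array would leave this ratio as it is, though a trend that depends on signal level would not.

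On the synthesis side, Pla2g4a, the phospholipase that frees arachidonic acid, read 8.49 log2 units on the siTet2/3 array and 8.78 on the control array, a difference of -0.29. Ptgs1, the cyclooxygenase known as the constitutive form, read 14.37 on the siTet2/3 array and 15.06 on the control array. It was 1.62-fold lower, by -0.70 log2 units, which was 2.17 times the robust SD of 0.32 at its level, and 727th from the lowest difference among the 8103 genes. Ptgs2, the cyclooxygenase that growth factors and cytokines induce, read 16.42 on the siTet2/3 array and 16.70 on the control array. Its difference of -0.28 was 0.97 times the robust SD at its level and below 1.5-fold. Both cyclooxygenase genes were thus far above background on both arrays, and of the pair Ptgs1 alone was past 1.5-fold; the Ptgs1 signal relative to that of Ptgs2 was 1.33-fold lower on the siTet2/3 array.

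Set against the cyclooxygenases, the Hpgd signal was 6.04-fold higher relative to Ptgs1 on the siTet2/3 array and 4.53-fold higher relative to Ptgs2. These are ratios of RNA signals and, like that to Ptgr1, rest mainly on the Hpgd difference. Enzyme activity and prostaglandin levels were not measured in the files used here.

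**Figure D2:**
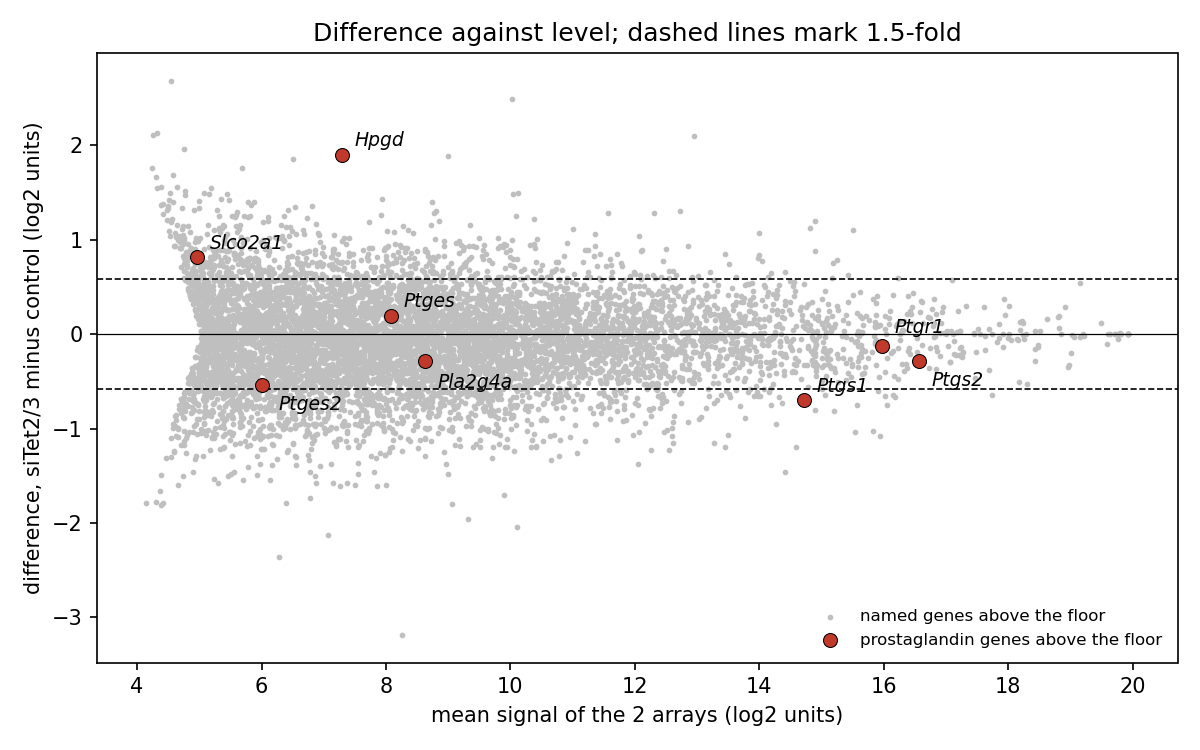
Difference between the arrays (siTet2/3 minus control, log2 units) against the mean signal, for 8103 named genes above the floor (grey) and the 8 prostaglandin genes above it (red), with dashed lines at 1.5-fold. Hpgd lies well above the upper line at 1.90, Ptgs1 lies just under the lower line at -0.70, and the other bright members, Ptgs2 and Ptgr1, lie between the lines.

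The promoter windows of both cyclooxygenase genes and of Slco2a1 are shown beside that of Hpgd because the 4 genes differ in both CG content and difference; CG dinucleotides are in capitals. The Ptgs1 window is chr3:39981169-39981468, that of Ptgs2 chr13:64713813-64714112 and that of Slco2a1 chr8:112467489-112467788, all on the plus strand of GRCr8.
Ptgs1: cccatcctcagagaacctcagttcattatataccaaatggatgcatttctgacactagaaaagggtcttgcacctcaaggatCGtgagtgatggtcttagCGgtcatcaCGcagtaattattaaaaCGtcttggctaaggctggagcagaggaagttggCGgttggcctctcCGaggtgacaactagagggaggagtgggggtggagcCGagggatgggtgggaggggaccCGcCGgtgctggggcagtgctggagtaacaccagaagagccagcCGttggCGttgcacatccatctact
Ptgs2: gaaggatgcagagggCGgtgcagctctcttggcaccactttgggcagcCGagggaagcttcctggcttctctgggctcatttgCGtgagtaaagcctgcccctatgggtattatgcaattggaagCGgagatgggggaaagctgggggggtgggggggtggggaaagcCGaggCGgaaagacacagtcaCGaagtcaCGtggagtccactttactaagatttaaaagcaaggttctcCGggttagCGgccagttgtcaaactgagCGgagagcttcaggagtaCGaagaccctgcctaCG
Slco2a1: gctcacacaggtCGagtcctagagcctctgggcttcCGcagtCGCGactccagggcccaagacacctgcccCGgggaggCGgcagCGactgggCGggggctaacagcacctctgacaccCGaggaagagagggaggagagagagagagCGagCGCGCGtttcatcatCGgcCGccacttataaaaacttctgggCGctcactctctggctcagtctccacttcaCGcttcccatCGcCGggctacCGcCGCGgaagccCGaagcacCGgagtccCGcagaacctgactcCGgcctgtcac
They hold 11, 13 and 26 CG dinucleotides in that order. Slco2a1 thus had the most CG dinucleotides of the 8 genes with a promoter entry, and Pla2g4a, with 4, the fewest. Ptges, Ptger2 and Ptger4 held 13 each, like Ptgs2, and Ptges2 and Ptgr1 had no entry in the table. Whether CG content moves with the differences was not tested. The E-box letters CACGTG found in the Hpgd window were also found in that of Ptgs2, 55 bases before its start and over a CG. The GC box was also found in the windows of Ptgs2, Ptges and Slco2a1, and CATAAA in that of Ptges. The TATA box TATAAA was found in the Slco2a1 window, 72 bases before the start. It was also found in reverse complement in the Pla2g4a window, 108 bases before the start, and on either strand in 14.3% of all windows.

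Ptgs2 and Pla2g4a are neighbours on chromosome 13 of the rat, with 0 protein-coding genes between them in the RefSeq order. They encode successive steps. Their differences of -0.28 and -0.29 log2 units were alike in size, but each was smaller than the robust SD at its level (0.97 and 0.64 times it). On the other side of Ptgs2, the nuclear pore gene Tpr, the second named gene, differed the other way: it read 10.00 log2 units on the siTet2/3 array and 9.12 on the control array and was 1.85-fold higher. Beyond Pla2g4a, Rgs18, a regulator of G protein signalling and the third named gene, read 6.16 on the siTet2/3 array and 4.91 on the control array, below the floor, and was at least 2.17-fold higher. Both Rgs18 values lay below the negative-control level of 8.31 log2 units. Of the 3 nearest named genes on each side of Ptgs1, Rbm18 and Mrrf alone passed the floor, and neither differed by 1.5-fold.

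The terminal synthases of prostaglandin E among the members differed in opposite directions, each by less than 1.5-fold. Ptges, the inducible microsomal synthase, read 8.18 log2 units on the siTet2/3 array and 7.98 on the control array, a difference of 0.20. Ptges2, a second membrane-associated synthase, read 5.73 on the siTet2/3 array and 6.27 on the control array, a difference of -0.53 or 1.45-fold lower. It was the member just inside the 1.5-fold limit. Both differences were smaller than the robust SD at their levels, and both genes lay below the negative-control level on both arrays. Ptges3, a further prostaglandin E synthase gene counted among the other prostanoid genes, was brighter. It read 14.94 on the siTet2/3 array and 14.74 on the control array, a difference of 0.21.

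The receptors came last in this pathway and lay in the range of background. Ptger2 and Ptger4 encode the prostaglandin E receptors that raise cyclic AMP. Ptger2 read 2.95 log2 units on the siTet2/3 array and 2.61 on the control array, and 84.2% of chemoreceptor genes were as bright or brighter. Ptger4 read 4.94 on the siTet2/3 array and 4.09 on the control array, just under the floor, and 5.89% of chemoreceptor genes were as bright. No fold is given for either, because neither was above the floor.

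Of 21 other prostanoid genes listed, 18 had a named probe and 6 passed the floor; past 1.5-fold, 0 were higher and 3 (50%) lower, against 8.63% higher and 13.2% lower of all genes above the floor. Their median was -0.25 log2 units. This list and the lists below were chosen with earlier results of these data known, so nothing is read from their shares. Abcc4, an exporter of prostaglandins and other organic anions, read 7.62 log2 units on the siTet2/3 array and 8.30 on the control array and was 1.60-fold lower. Both Abcc4 values lay below the negative-control level of 8.31 log2 units. Akr1b1, an aldo-keto reductase that can form prostaglandin F, read 15.70 on the siTet2/3 array and 16.35 on the control array and was 1.57-fold lower. Hpgds, the haematopoietic synthase of prostaglandin D, lay below the floor on the siTet2/3 array (4.37) and just above it on the control array (5.14), so it was at least 1.07-fold lower. It was counted as lower by its difference as measured, -0.77. The receptor genes Ptger1, Ptger3, Ptgfr, Ptgir and Ptgdr2 were not above the floor.

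Genes that release or reattach arachidonic acid did not differ past the limit in either direction. Of 31 listed, 27 had a named probe and 17 passed the floor; 0 were higher and 0 lower, against 8.63% and 13.2% of all genes above the floor, with a median of 0.00 log2 units and a range of -0.53 to 0.52. Lpcat2, an acyltransferase of membrane phospholipids, differed most, at 8.06 log2 units on the siTet2/3 array and 8.59 on the control array. Of 21 lipoxygenase, leukotriene and epoxide genes, 20 had a named probe and 6 passed the floor, with 1 higher and 1 lower (16.7% each, against 8.63% and 13.2% of all genes above the floor) and a median of -0.06. The cytochrome gene Cyp2j10 read 5.97 log2 units on the siTet2/3 array and 4.83 on the control array, below the floor, and was at least 1.90-fold higher. Both Cyp2j10 values lay below the negative-control level of 8.31 log2 units. Lta4h, the hydrolase that makes leukotriene B, was 1.55-fold lower, at 9.06 log2 units on the siTet2/3 array and 9.69 on the control array.

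Hpgd belongs to the short-chain dehydrogenase family, and other members of that family were listed for comparison. Of 48 other members listed, 46 had a named probe and 32 passed the floor; past 1.5-fold, 2 (6.25%) were higher and 5 (15.6%) lower, near the 8.63% and 13.2% of all genes above the floor, with a median of -0.19 log2 units. Sdr16c5, an epidermal retinol dehydrogenase, read 10.01 on the siTet2/3 array and 8.99 on the control array and was 2.02-fold higher. Dhrs11 was 1.72-fold higher. Dhrs1 was 2.62-fold lower, at 5.47 log2 units on the siTet2/3 array and 6.86 on the control array, Wwox, which encodes a dehydrogenase with WW domains, 2.07-fold lower and the retinol dehydrogenase gene Dhrs9 1.65-fold lower. Both values of Dhrs11, of Dhrs1 and of Wwox lay below the negative-control level of 8.31 log2 units. The largest increase in the list, that of Sdr16c5 at 1.01 log2 units, was smaller than that of Hpgd.

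Of 26 genes listed for the cyclic AMP arm downstream of Ptger2 and Ptger4, 23 had a named probe and 15 passed the floor. Past 1.5-fold, 1 was higher and 1 lower (6.67% each), against 8.63% higher and 13.2% lower of all genes above the floor. The median of this list was -0.05 log2 units. Pde7a, a phosphodiesterase that breaks down cyclic AMP, read 10.79 log2 units on the siTet2/3 array and 9.85 on the control array and was 1.92-fold higher. Atf1, a transcription factor that cyclic AMP signalling activates, read 10.26 on the siTet2/3 array and 10.92 on the control array and was 1.58-fold lower. The G protein gene Gnas and the kinase gene Prkaca differed by -0.11 and -0.17. Over the 5 wider lists together, 76 of 134 genes with a named probe passed the floor, of which 4 (5.26%) were higher and 10 (13.2%) lower, with a median of -0.08 log2 units. The lower share was that of all genes above the floor, 13.2%, and the higher share was below their 8.63%.

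**Figure D3:**
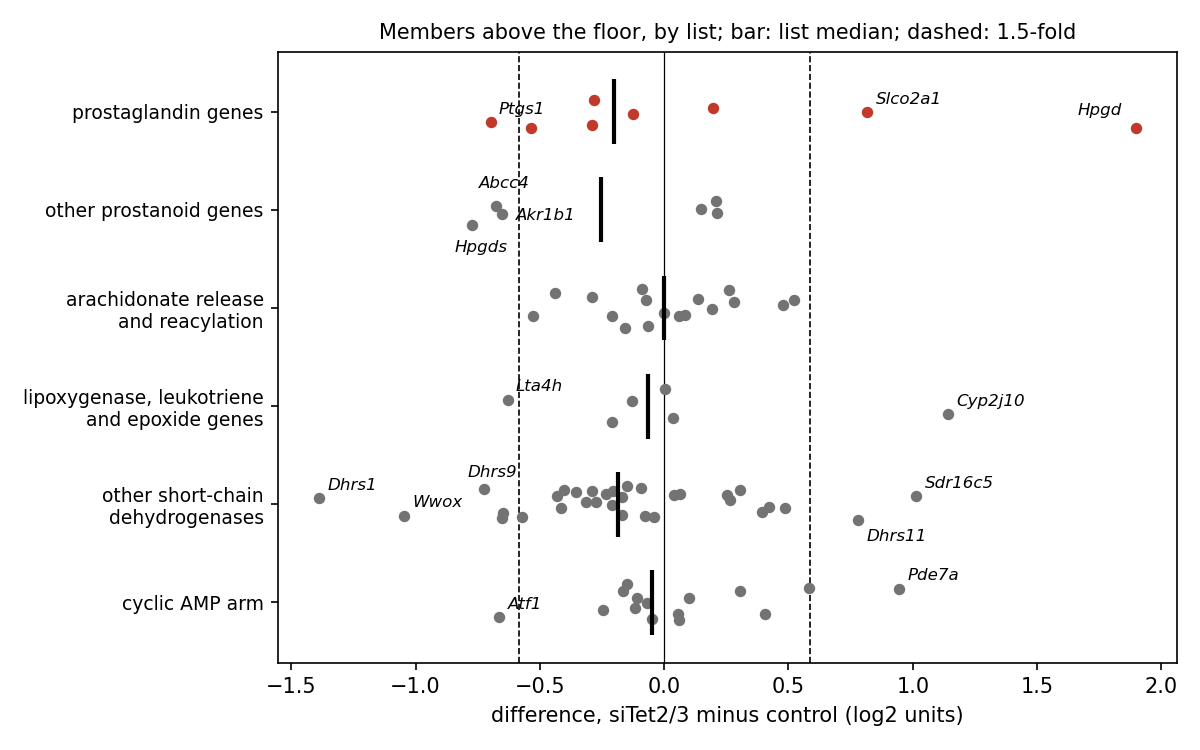
Difference between the arrays (siTet2/3 minus control, log2 units) for genes above the floor in the prostaglandin genes (red) and 5 wider lists (grey), with each list's median as a black bar and dashed lines at 1.5-fold. Points are spread vertically for legibility; Hpgd at 1.90 lies to the right of all genes in the other lists, whose medians lie between -0.25 and 0.00.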

How the data were processed

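RNA was hybridised to 1 array per group after biotin labelling of cDNA with a whole-transcript kit, per the labels' protocols. The authors deposited 1 table of log2 signal, a row per probe set and a column per array. RMA and the Transcriptome Analysis Console are named, without versions, per the submitters' processing notes. Both columns had nearly the same distribution (sorted values within 0.15 log2 units), so a difference in total RNA per cell would not show. Values run up to 19.93, above the usual range of RMA alone, so every fold is one of the deposited scale. Genome build and settings: not given in the sources used here.

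Of 23188 gene probes, a platform annotation named 15049 with 1 symbol, 0 with several and 8139 with none; the named ones covered 15037 genes, with probes averaged for 10 of them. All 15049 identifiers were found in a RefSeq table of GRCr8, and 0 symbols needed updating. Each gene's control value was subtracted from its siTet2/3 value (Python 3.11.15, pandas 2.3.3). Counts, shares, ranks and medians used these differences as measured. Where 1 of the values lay under the floor, a fold given as at least a size was computed with that value raised to the floor. No test was possible. The robust SD is the median absolute deviation scaled to match the SD of a normal distribution. Promoter windows and their coordinates are RefSeq's, in GRCr8; motifs were searched on both strands. The counting was run on simulated data, with 2-fold differences planted in genes well above the floor and less noise than on these arrays. That run checks the code and not the calls made near the floor. A trend on level was fitted with limma 3.58.1 (R 4.3.3, loess span 0.3) over genes above the floor.

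The members and gene lists were chosen with earlier results of these data known. All 10 members are described; of each other list up to 3 genes per direction past 1.5-fold were named, or the 1 of largest difference where none passed, and further genes were added with their values known. The genes nearest to Hpgd in level were limited to 5. There were 0 columns of unknown samples.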

Additional observations from a re-analysis of the deposited data

How the results depend on the processing

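With centring on the median difference (0.05 log2 units), removal of the loess trend, the brightest probe or values raised to the floor, the Hpgd difference stayed between 1.90 and 1.97 log2 units, and each other member above the floor kept its sign in these settings; Ptger2 and Ptger4, below the floor on both arrays, kept theirs in the first 3 and have no value when raised to the floor. The count of members at least 1.5-fold higher was 2; it was 3 with no floor, which adds Ptger4, 1 with a floor 1 log2 unit higher, 1 with values raised to the floor, where Slco2a1 no longer counts, 1 at a limit of 2-fold, and 0 with the floor from negative-control probes, under which Hpgd lies on both arrays and 4 of the 10 members remain above. The count at least 1.5-fold lower was 1, and 0 at 2-fold. The members' median of -0.20 became 0.036 with no floor, which adds Ptger2 and Ptger4. Over the wider lists, 4 higher and 10 lower became 12 and 16 of 134 genes with no floor. They became 2 and 4 with the floor from negative-control probes, and 2 and 2 at 2-fold. With no floor, 11.2% of all 15037 genes were higher and 11.2% lower. With the floor 1 log2 unit higher, 7.31% of 6802 genes were higher and 12.8% lower. With the floor from negative-control probes, 6.01% of 4124 genes were higher and 11.0% lower. At 2-fold, 1.81% of the 8103 genes were higher and 3.05% lower. Centring turned the 8.63% higher and 13.2% lower of all genes into 10.4% and 11.1%, and raising values to the floor turned them into 6.96% and 11.8%. No paired analysis was possible because each group has 1 array. No array could be left out for the same reason.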

Other observations

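Among markers of other cell types, Tek, an endothelial receptor tyrosine kinase gene, read 9.25 log2 units on the siTet2/3 array and 9.66 on the control array, while the other endothelial markers Pecam1, Cdh5 and Kdr were not above the floor. The leukotriene receptor gene Cysltr1 read 11.82 on the siTet2/3 array and 11.81 on the control array. Of the leukotriene synthesis genes, Alox5, Alox5ap and Ltc4s were not above the floor. Lta4h was above it on both arrays, at 9.06 (siTet2/3) and 9.69 (control) log2 units. These genes were chosen after their values were seen.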
